A study of Mus musculus with 4 samples.

Results

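The miR-130/miR-301 family was described as 4 miRNA genes, Mir130b, Mir301b, Mir130a and Mir301, chosen by name and matched to the table by gene ID. All 4 had a row among the 643 miRNA genes of a table of 2976 rows. The table held 4 small RNA libraries of 1 group. Their cells were peri-wolffian duct stroma, the tissue that surrounds an epithelial duct of the embryonic urogenital tract, of CD1 mouse embryos at E10.5. The embryos carried Tbx18-Cre and CAG-tdTomato. Cre from the Tbx18 gene switches on a red fluorescent protein in cells that express Tbx18 and in their descendants, and cells were collected by fluorescence sorting. The labels describe the embryos as wildtype and leave unstated which embryos, single or pooled, went into which library. Spreads here therefore measure how far these libraries differ, and part of that may be technical. The p-values test whether a ratio between genes departs from equality over these libraries, and hold for libraries rather than embryos. There was no second condition, and the comparisons are between genes within a library.

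A miRNA is cut from a hairpin precursor and guides an Argonaute protein to messenger RNAs that pair with its seed, bases 2 to 8 from its 5′ end, after which the messenger is translated less or degraded. Genes whose mature miRNAs share a seed can act on overlapping sets of messengers, and miR-130a, miR-130b, miR-301a and miR-301b form such a family in vertebrates. In human cells the family has been studied in blood vessel growth, where miR-130a acts on the homeobox genes GAX and HOXA5, and in the matrix-producing cells of pulmonary vessels. The family lies at separate places in the mouse genome, so its members can differ in level while their seed is the same.

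The mature sequences show what the members share and where they differ, and bear on how well reads can be assigned to one of them. They were taken from RefSeq for GRCm38.p6, in which all 4 hairpins matched. The mature 3p sequences follow 5′ to 3′, with the seed in capitals. Mir301b is listed there with its 5p sequence.
miR-130b-3p: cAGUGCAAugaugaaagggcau
miR-130a-3p: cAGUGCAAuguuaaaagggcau
miR-301a-3p: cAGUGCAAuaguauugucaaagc
Counting from 1 at the 5′ end, miR-130b-3p and miR-130a-3p were identical at 20 of 22 positions and differed by A11U and G13A. miR-130b-3p and miR-301a-3p were identical at 11 of the 22 positions compared, with their first 9 bases the same. Of 1738 mature sequences in RefSeq, 7 carried the seed AGUGCAA, or 0.403%. Mir301b was not among these, as its 3p sequence is not listed there.

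The other arm of the hairpins did not carry this seed, and there miR-301b and miR-301a shared a seed of their own. The 5p sequences are shown with their own bases 2 to 8 in capitals.
miR-130b-5p: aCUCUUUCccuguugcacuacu
miR-130a-5p: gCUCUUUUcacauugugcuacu
miR-301b-5p: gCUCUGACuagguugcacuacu
miR-301a-5p: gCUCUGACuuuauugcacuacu
The seed shared by miR-301b-5p and miR-301a-5p was CUCUGAC, and these sequences differed at 3 of 22 positions, by A10U, G11U and G12A. The 5p sequences of miR-130b and miR-130a differed at 7 of 22 positions. The deposited rows are genes and not arms, so a level here does not separate the arms.

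Mir130b and Mir301b form 1 locus. The hairpins are given whole, because each row is a gene and its hairpin length was used to recover reads, with the heptamer AGUGCAA in capitals.
Mir130b: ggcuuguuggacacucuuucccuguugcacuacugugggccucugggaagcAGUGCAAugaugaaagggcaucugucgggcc
Mir301b: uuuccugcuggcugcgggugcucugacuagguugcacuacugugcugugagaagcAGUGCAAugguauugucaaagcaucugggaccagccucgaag
Mir130a: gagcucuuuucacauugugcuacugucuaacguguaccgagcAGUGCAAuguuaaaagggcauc
Mir301: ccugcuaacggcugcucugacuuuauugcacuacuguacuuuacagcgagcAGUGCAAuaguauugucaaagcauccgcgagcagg
The heptamer was present once in each of the 4 hairpins and in 12 of all 1005 RefSeq hairpins, or 1.19%, read on the hairpin's own strand. Mir130b (gene ID 723816) lies on chromosome 16 at 17124061 to 17124142, minus strand, and Mir301b (gene ID 791069) on the same strand at 17124400 to 17124496, with 257 bases between them. Both lie in an intron of the protein-coding gene 2610318N02Rik on its own strand in GENCODE vM21. Mir301 (gene ID 723834) is on the plus strand of chromosome 11, from 87113004 to 87113089, in an intron of Ska2, a gene of the kinetochore machinery that attaches chromosomes to the spindle. Mir130a (gene ID 387149) lies on chromosome 2 at 84741115 to 84741178, minus strand, outside annotated genes. None of the 4 overlapped another row of the table.

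Levels are given as TPM, a transcript abundance in which the reads of a gene are set against its length and then scaled to a total of 1000000 for the library. Values in this table sum to 2.33% to 7.22% of that total, with the lowest sum in library 4, so TPM moves with what the rest of a library held. Whole reads could be recovered from the values (as described under the processing), and miRNA genes had 883201, 1087240, 978210 and 146255 reads in libraries 1 to 4. Levels are therefore also given as RPM, reads per 1000000 reads of miRNA genes. Genes that reached 1 TPM in every library are called detected. Of the 6 mesenchymal marker genes examined 4 were detected, with a summed level of 331 to 2373 TPM, and Mir199a-2 and Mir214 were listed at 0. Of the endothelial markers Mir126a and Mir126b, Mir126a had a row, at 251 to 528 TPM. Blood markers summed to 4.51 to 21.1 TPM over 7 genes, none of them detected, with Mir486 and Mir223 listed at 0. Epithelial markers summed to 43.5 to 157 TPM (5 of 6 detected). Neural markers summed to 348, 35.7, 2890 and 80.6 TPM in libraries 1 to 4 (1 of 6 detected, Mir124a-1 listed at 0). Broadly expressed genes such as Mir21a and Mir22 were also listed at 0 in all libraries. A marker listed at 0 can therefore not be read as absent. The part of other cell types in the family's levels was not tested, and in these bulk samples fewer cells of a type and less RNA per cell cannot be told apart.

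Mir130b was the most abundant member in all 4 libraries. It had 83.5, 146, 88.7 and 34.8 TPM in libraries 1 to 4, a mean of 88.3 ± 45.5 TPM (SD, n = 4). It was highest in library 2 and lowest in the shallow library 4. These values rested on 1752, 2463, 1394 and 308 reads. In RPM Mir130b had 1984, 2265, 1425 and 2106. On that scale library 3 was the lowest and library 4 stood between libraries 1 and 2. The largest of these 4 values was 1.59 times the smallest, against 4.19 times in TPM.

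Its locus partner Mir301b was the least abundant member in all 4 libraries by TPM. Mir301b had 2.90, 8.93, 15.2 and 2.39 TPM in libraries 1 to 4, a mean of 7.35 ± 5.998 TPM (SD, n = 4). Library 3 was highest, where Mir130b had its lowest RPM, and libraries 1 and 4 were low. Without library 3 its mean was 4.74 TPM. The reads behind these values were 72, 178, 282 and 25. In library 4 the 25 reads gave an exact Poisson 95% interval of 1.55 to 3.53 TPM, which covers counting error only, as do all intervals here. In RPM Mir301b had 81.5, 164, 288 and 171, with the largest 3.54 times the smallest.

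Mir130a and Mir301, the members at other loci, had intermediate levels. Mir130a had 9.78, 21.8, 21.4 and 3.77 TPM in libraries 1 to 4, a mean of 14.2 ± 8.90 TPM (SD, n = 4), from 160, 287, 262 and 26 reads. It was alike in libraries 2 and 3 and lowest in library 4. Mir301 had 6.77, 16.6, 20.1 and 7.44 TPM, a mean of 12.7 ± 6.64 TPM (SD, n = 4), from 149, 293, 331 and 69 reads. Its level was highest in library 3, and libraries 1 and 4 were alike. In RPM Mir130a had 181, 264, 268 and 178, and Mir301 had 169, 269, 338 and 472. On that scale library 4 was among the lowest for Mir130a and the highest for Mir301.

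**Figure D1:**
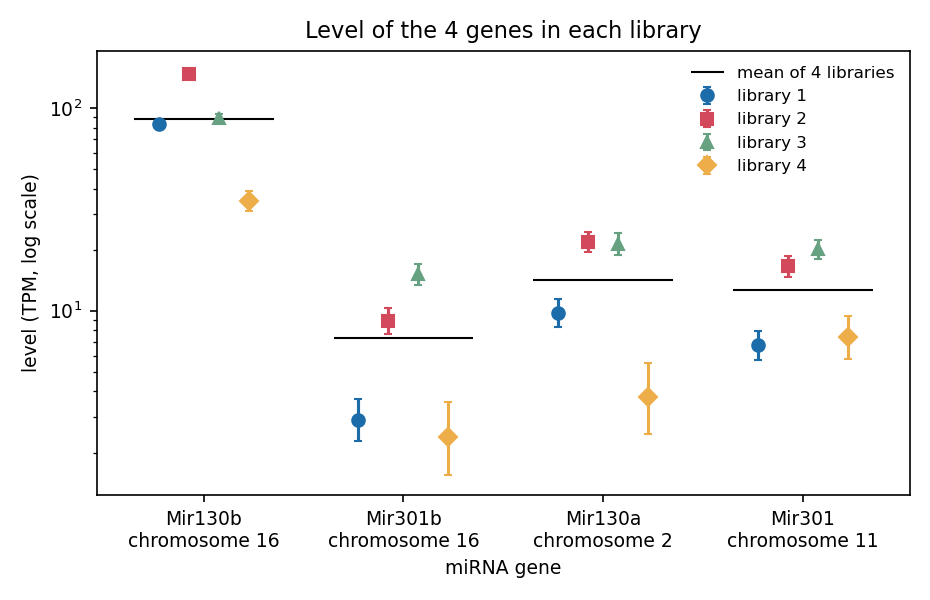
TPM on a log scale (vertical axis) for Mir130b and Mir301b, which share a locus on chromosome 16, and for Mir130a and Mir301 (horizontal axis). Points are libraries 1 to 4 with exact Poisson 95% intervals of the reads, and lines are means; Mir130b lies at 34.8 to 146 TPM, above all values of the other genes, which lie at 2.39 to 21.8 TPM.

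Set among the 643 miRNA genes, Mir130b ranked 78, 59, 77 and 71 in libraries 1 to 4 by TPM, with 1 the highest. Mir301b ranked 206, 175, 161 and 195. Mir130a ranked 164, 136, 137 and 170, and Mir301 ranked 177, 151, 140 and 135. All 4 members reached at least 1 TPM in all 4 libraries, as did 33.1% of the 643 miRNA genes. At 10 TPM or more in all libraries, which 17.6% of miRNA genes reached, Mir130b was the only member. Mir130a and Mir301 reached 10 TPM in 2 libraries each, and Mir301b in 1. The 643 genes include some listed at 0 in all libraries, such as Mir21a and Mir22, which cannot be read as absent. The ranks and shares are therefore relative to the rows as listed.

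**Figure D2:**
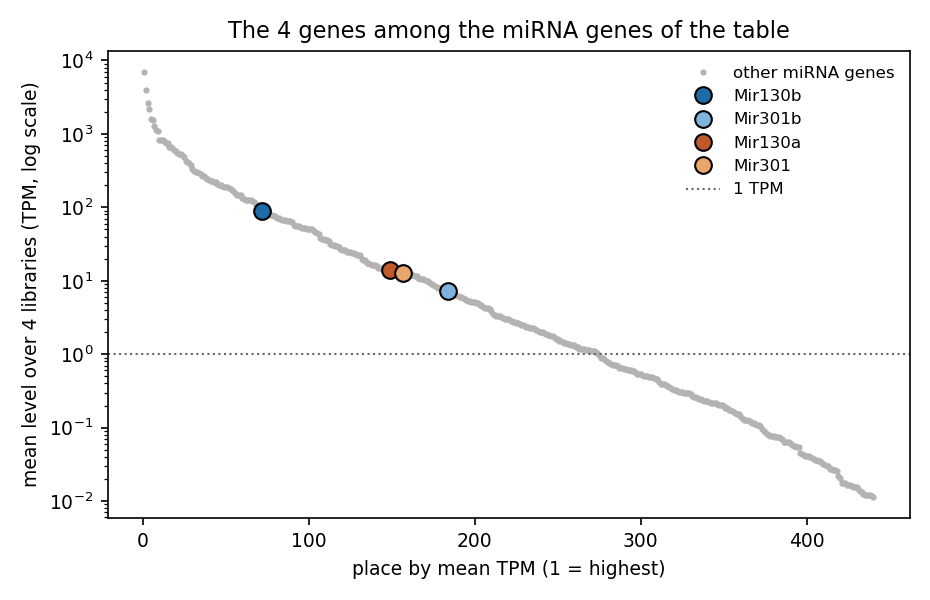
Mean TPM over the 4 libraries on a log scale (vertical axis) against the place of each miRNA gene by that mean (horizontal axis), for genes with a mean above 0. Mir130b, with a mean of 88.3 TPM, stands apart from Mir130a (14.2), Mir301 (12.7) and Mir301b (7.35), and all 4 lie above the dotted line at 1 TPM.

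Within a library, the members were set against each other by the log2 ratio of their TPM plus 1. Mir130b exceeded its own locus partner Mir301b by 4.44, 3.89, 2.47 and 3.40 log2 units in libraries 1 to 4, a mean of 3.55 ± 0.83 (SD, n = 4). The excess was largest in library 1 and smallest in library 3. Mir130b exceeded Mir130a by 2.97, 2.69, 2.00 and 2.91, a mean of 2.64 ± 0.44. It exceeded Mir301 by 3.44, 3.07, 2.09 and 2.09, a mean of 2.67 ± 0.69. Mir130b was thus higher in 4 of 4 libraries than each of the other members, by about 6.25 times over Mir130a, 6.37 times over Mir301 and 11.7 times over Mir301b when the mean log2 ratios are turned to folds. The size of these folds depended on the pseudocount, and with 10 TPM in place of 1 they were 3.93, 4.08 and 5.40 times.

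Mir301b was lower than Mir301 in 4 of 4 libraries, with log2 ratios of -0.99, -0.82, -0.38 and -1.32 and a mean of -0.88 ± 0.39 (SD, n = 4). Against Mir130a the ratios of Mir301b were -1.47, -1.20, -0.47 and -0.49, with a mean of -0.91 ± 0.50, also lower in 4 of 4. The Mir301b hairpin is longer than that of Mir130a, at 97 against 64 nt, and TPM divides by this length. In reads not divided by length, the mean ratio of Mir301b to Mir130a was -0.44 ± 0.58, with Mir301b higher in 1 library, library 3, at 282 reads against 262. The ratio of Mir301b to Mir301 in reads was -0.85 ± 0.51.

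Mir130a and Mir301 did not differ beyond their spread. Their log2 ratio was 0.47, 0.38, 0.08 and -0.82 in libraries 1 to 4, a mean of 0.03 ± 0.59 (SD, n = 4). Mir130a was higher in 3 libraries and Mir301 in library 4. In reads not divided by length the mean was -0.41 ± 0.67, and Mir130a was higher in 1 library. The share of Mir130a in the reads of both genes was 51.8%, 49.5%, 44.2% and 27.4%. The Wilson 95% intervals were 46.2 to 57.3%, 45.4 to 53.5%, 40.2 to 48.2% and 19.4 to 37.1%, and that of library 4 did not overlap the others.

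The ratios were tested by flipping their signs in all possible ways, an exact permutation test that is two-sided. The 5 ratios with 1 sign in all libraries each gave an exact p = 0.125, the smallest that 4 libraries allow, and 0.15 after Benjamini-Hochberg adjustment over the 6 ratios computed. The ratio of Mir130a to Mir301 gave an exact permutation p of 0.875 before and after adjustment. No ratio could pass a threshold of 0.05 in this test.

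**Figure D3:**
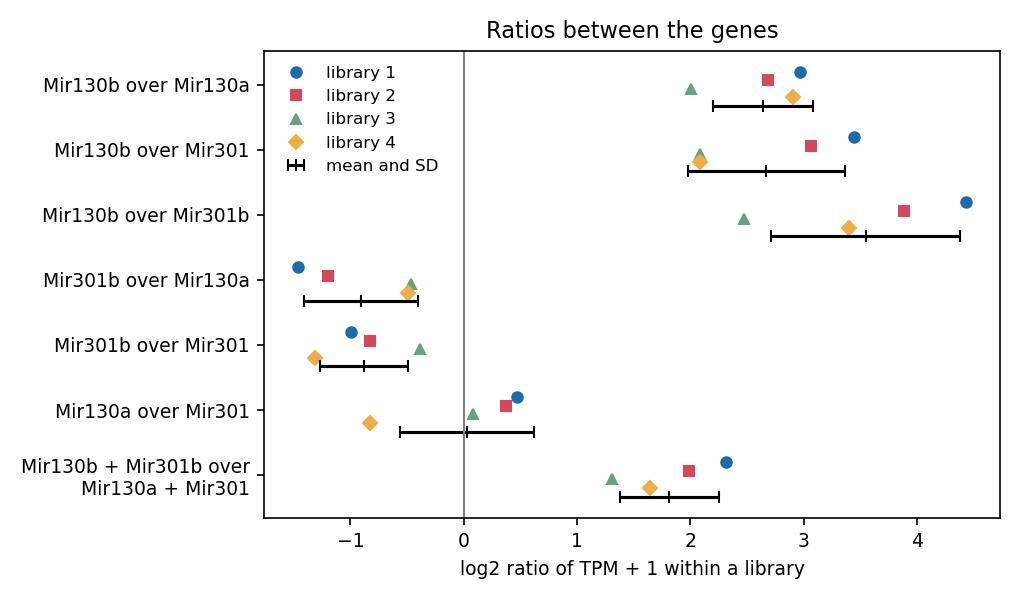
The log2 ratio of TPM plus 1 within a library (horizontal axis) for the 6 pairs of genes and for the locus sum over the sum of the other genes (rows). Points are libraries 1 to 4, and bars are the mean and SD; the 3 ratios with Mir130b on top lie between 2.00 and 4.44, the ratios with Mir301b on top lie below 0, and Mir130a over Mir301 straddles 0.

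Taken as a locus, Mir130b and Mir301b summed to 86.5, 155, 104 and 37.2 TPM in libraries 1 to 4. Mir130a and Mir301 summed to 16.6, 38.4, 41.4 and 11.2 TPM. The log2 ratio of the locus to the other genes was 2.32, 1.99, 1.31 and 1.65, a mean of 1.81 ± 0.44 (SD, n = 4), higher in 4 of 4 libraries. The locus held 85.5%, 82.0%, 73.9% and 77.8% of the reads of the 4 genes. Within the locus Mir130b took 96.1%, 93.3%, 83.2% and 92.5% of the reads, so the position of the locus above the other genes was that of Mir130b, and Mir301b lay below both other genes by TPM.

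Grouped by name instead of locus, a grouping added after the values were seen, Mir130a and Mir130b summed to 93.3, 168, 110 and 38.6 TPM. Mir301 and Mir301b summed to 9.68, 25.5, 35.2 and 9.83 TPM. The log2 ratio was 3.14, 2.67, 1.62 and 1.87, a mean of 2.33 ± 0.71 (SD, n = 4). The sources used here do not state how the authors treated reads that match more than 1 gene. The 3p sequences of miR-130b and miR-130a differ at 2 positions. The split of reads between those genes is therefore less certain than the split between them and Mir301. In the Mir301b hairpin, the stretch that corresponds to miR-301a-3p differs from it at 1 position. The split of reads between Mir301b and Mir301 is therefore also uncertain.

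Both the make-up of the family and its total as a share of miRNA reads varied between libraries. The 4 genes summed to 103, 193, 145 and 48.4 TPM, a mean of 123 ± 61.7 TPM (SD, n = 4). As a share of the summed TPM of miRNA genes they took 0.242%, 0.295%, 0.235% and 0.295%, a mean of 0.267% ± 0.0327 (SD, n = 4). In RPM they had 2415, 2963, 2320 and 2926, the largest 1.28 times the smallest. The SD over libraries of the log2 of this sum was 0.18. Among shares of the family's reads, the largest was 1.34 times the smallest for Mir130b, 1.90 for Mir130a, 2.31 for Mir301 and 3.68 for Mir301b. For the locus it was 1.16 times, less than for the family total. Counting intervals were computed for shares within the family and not for its total.

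Within that total Mir130b supplied 82.1%, 76.5%, 61.4% and 72.0% of the reads in libraries 1 to 4. The Wilson 95% intervals were 80.5 to 83.7%, 74.97 to 77.9%, 59.4 to 63.4% and 67.5 to 76.0%, which overlapped between libraries 2 and 4 and between no others. Mir301b supplied 3.38%, 5.53%, 12.4% and 5.84%, with library 3 set apart at an interval of 11.1 to 13.8%. Mir301 supplied 6.99%, 9.10%, 14.6% and 16.1%, and Mir130a supplied 7.50%, 8.91%, 11.5% and 6.07%. Library 3, with the lowest share of Mir130b, was also the library with the highest level of neural markers (2890 TPM, of which Mir9-3 was 2861), epithelial markers (157 TPM), the endothelial marker Mir126a (528 TPM) and blood markers (21.1 TPM). The order of libraries in TPM depended on the library sums. The summed TPM of miRNA genes was 61707.5 in library 3 and 16399.4 in library 4. As shares of that sum, Mir126a and the epithelial markers were higher in library 4 than in library 3. Neural and blood markers were still highest in library 3. The part of these cell types in the make-up was not tested.

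**Figure D4:**
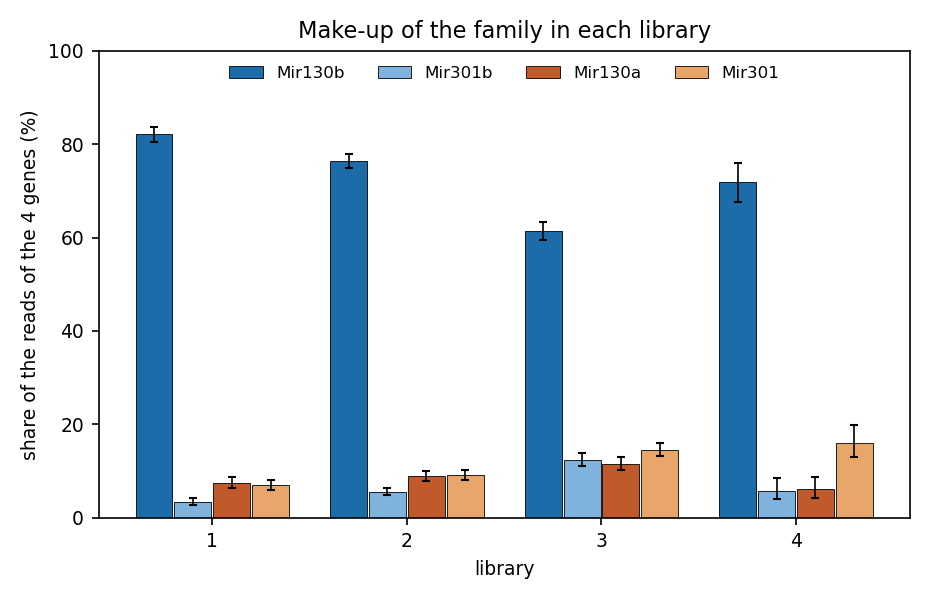
Share of the reads of the 4 genes in percent (vertical axis) taken by each gene in libraries 1 to 4 (horizontal axis), with Wilson 95% intervals for counting error. Mir130b takes 61.4% to 82.1% and is lowest in library 3, where Mir301b reaches 12.4%.

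The steadiness of each member between libraries was read against all miRNA genes. The SD over libraries of the log2 of RPM plus 1 was 0.30 for Mir130b, 0.74 for Mir301b, 0.33 for Mir130a and 0.62 for Mir301. Its median was 0.62 over the 273 miRNA genes that averaged 1 TPM or more. A smaller SD was found for 30 of these genes than for Mir130b, for 44 than for Mir130a, for 134 than for Mir301 and for 159 than for Mir301b. These SDs depended on single libraries. That of Mir130b was 0.10 without library 3, 0.36 without library 1 and 0.34 without library 4. Without library 1 that of Mir301b was 0.45 and that of Mir301 was 0.41. That of Mir301b was 0.91 without library 2 or library 4, and that of Mir301 was 0.75 without library 2. That of Mir130a stayed between 0.32 and 0.33 with each library left out. It was below that of Mir130b without library 1 or library 4.

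The genes of the locus were compared with other miRNA genes that lie close together, as such genes are often cut from 1 transcript. Over the 286 pairs on 1 strand with starts within 10 kb and both means at least 1 TPM, the log2 ratio within a pair had a median SD of 0.58 over the libraries. For Mir130b and Mir301b this SD was 0.83, and 219 of the 286 pairs, itself counted, were at or below it. Without library 3 the SD was 0.52, the same as the median of the 286 pairs over those 3 libraries. Over all 37128 pairs of miRNA genes with means of at least 1 TPM, near or far, the median SD was 0.92. Mir130b and Mir301b thus moved apart more than most neighbours did over the 4 libraries, and no longer did so without library 3. The gap in level within the locus, 3.55 log2 units, was equalled or exceeded by 93 of the 286 neighbouring pairs, itself counted, and their median gap was 2.36. With both means at least 10 TPM, which Mir301b did not reach, 135 pairs had a median SD of 0.57. Most of the 286 pairs were of miRNA genes on chromosome 12, so the counts and medians mainly describe that chromosome. These figures are descriptions, since pairs share libraries and genes.

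**Figure D5:**
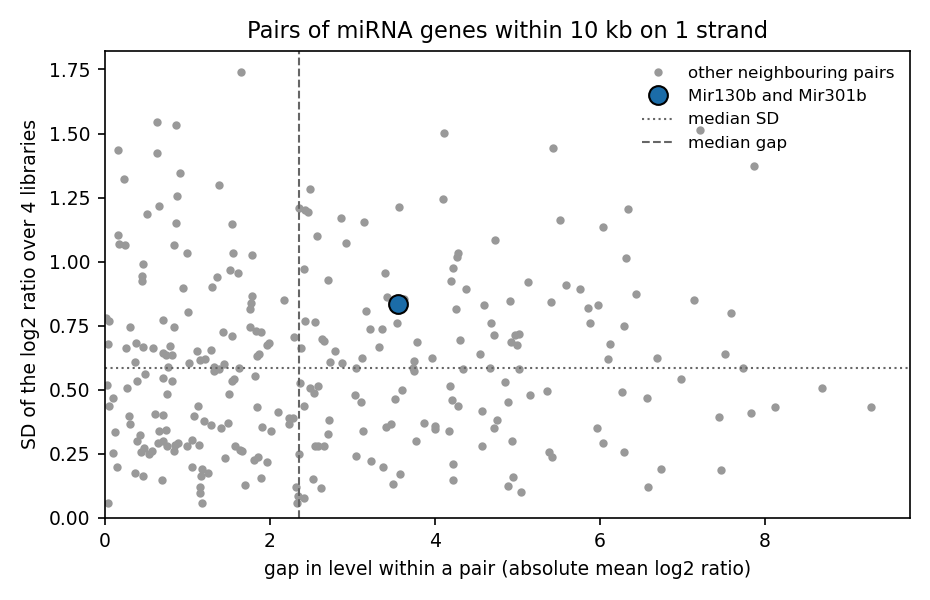
Each point is a pair of miRNA genes on 1 strand with starts within 10 kb and means of at least 1 TPM; the horizontal axis is the absolute mean log2 ratio of TPM plus 1 within the pair and the vertical axis its SD over the 4 libraries. Mir130b and Mir301b, at 3.55 and 0.83, lie beyond both medians (2.36 and 0.58).

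For each member the miRNA genes with the most similar course over the 4 libraries were found, by the root mean square difference between log2(TPM + 1) values centred on each gene's own mean. Mir130b was closest to Mir27a (0.06), Mir330 (0.10) and Mir493 (0.10), all with their highest level in library 2. The median over the 169 genes compared was 0.49, and Mir130a was 61st and Mir301 102nd in that order. Mir130a was closest to Mir30e (0.05), Mir16-2 (0.08) and Mir425 (0.08). Mir301 was closest to Mir93, Mir218-1 and Mir18, at 0.18, 0.19 and 0.19, all highest in library 3.

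Mir301b was closest to Mir325 (0.06), Mir19b-1 (0.11) and Mir18 (0.16) among 272 genes with a mean of at least 1 TPM. Mir19b-1 had 2.34, 7.16, 10.6 and 1.92 TPM in libraries 1 to 4, a course like that of Mir301b at a slightly lower level. Of the other members Mir301 was 24th in that order (0.34), Mir130a 43rd (0.44) and Mir130b 121st (0.72). Mir301b was therefore nearer in course to both genes at other loci than to the gene 257 bases away. Without library 3 the differences were 0.20 to Mir301, 0.41 to Mir130a and 0.42 to Mir130b, so Mir130a and Mir130b were then about equally near. With 4 libraries many genes share a course by number alone, and these places are descriptions. The part of reads that could match both Mir301b and Mir301 in the likeness of these genes was not tested.

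1 further gene with the family's seed had a row. This gene, Mir721, whose mature sequence is shown for its seed, was listed at 0 in all 4 libraries.
miR-721: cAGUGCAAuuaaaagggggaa
Genes expressed in many tissues, such as Mir21a and Mir22, were also listed at 0 in all libraries, so this 0 gives no limit on the level of Mir721. Mir721 overlapped no other row. The remaining RefSeq genes with this seed, Mir130c, Mir6341 and Mir6389, were not analysed here. Within 50 kb of a member, apart from Mir130b and Mir301b themselves, there was 1 row, the long noncoding RNA gene Gm19426, 986 bases from Mir130a, with 0.0054, 0, 0.0072 and 0.0128 TPM.

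The miR-19 and miR-148/miR-152 families have seeds that overlap that of miR-130/miR-301 by 6 bases, shifted by 1 position. The sequences are given to show the shift, with bases 2 to 8 in capitals.
miR-130b-3p: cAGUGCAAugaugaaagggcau
miR-19a-3p: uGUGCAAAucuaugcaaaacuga
miR-148a-3p: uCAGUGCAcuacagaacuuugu
The 4 genes of the miR-130/miR-301 family summed to 123 ± 61.7 TPM, against 174 ± 77.7 TPM for the 3 miR-19 genes and 1400 ± 659 TPM for the 3 miR-148/miR-152 genes (SD, n = 4). The log2 ratio of miR-130/miR-301 to miR-148/miR-152 was -3.62, -3.44, -3.52 and -3.48 in libraries 1 to 4, a mean of -3.51 ± 0.08 (SD, n = 4), lower in 4 of 4. Against miR-19 the ratio was 0.49, 0.32, -0.66 and -2.29, a mean of -0.53 ± 1.27, with the miR-130/miR-301 sum higher in libraries 1 and 2 and lower in libraries 3 and 4. Without library 4 that mean was 0.05. Most of the miR-19 sum was Mir19a, at 67.7, 135, 204 and 236 TPM. Mir19b-1 and Mir19b-2 have the same mature 3p sequence. How reads matching both were treated is not stated, so their levels and the miR-19 sum are less certain.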

How the data were processed

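The deposited values are TPM per gene, 1 column per library. Per the labels' protocols, sorted cells went straight into QIAzol, the miRNeasy Micro Kit gave total RNA, and the NEBNext small RNA kit made the libraries. The submitters' processing notes name limma and the build mm10 (GRCm38). The sources used here name no aligner, counter or annotation, and do not say how reads that match several genes were handled. Rows were joined by gene ID to RefSeq genes of GRCm38.p6, and 2541 of 2976 matched; intron and exon came from GENCODE vM21.

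Reads were recovered by multiplying the TPM of each miRNA gene by its length and dividing by the smallest nonzero product in that library, taken as 1 read; 100% of the nonzero results were within 0.01 of a whole number. Those reads gave depth, shares and intervals, and no count model was fitted. Chi-square tests found every pair of libraries apart beyond sampling noise. Log2 values use TPM + 1, which understates differences of low genes. Ratios were tested by an exact sign-flip permutation test, and sums over members were not tested. Named genes were the members, genes sharing or overlapping their seed, rows within 50 kb, marker genes, and the 3 miRNA genes most alike each member among those with a mean of at least 10 TPM (1 TPM for Mir301b). The members and lists were chosen with earlier results of these data known. Alternatives covered the pseudocount, recovered reads, filters and leaving out each library. Calculations were tested on simulated data. The work was done in Python 3.11.15 with scipy 1.17.1, numpy 2.4.6, pandas 2.3.3 and matplotlib 3.10.9.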

Additional observations from a re-analysis of the deposited data

How the results depend on the processing

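Of 104 alternative values, 3 changed direction, all for Mir130a over Mir301, whose mean log2 ratio was 0.03. It was -0.41 in recovered reads not divided by hairpin length, -0.12 without library 1 and -0.09 without library 2, and it ranged from -0.12 to 0.31 with each library left out. All 21 alternative values of the ratios with Mir130b on top kept their sign, though with a pseudocount of 10 TPM their means were 1.97 over Mir130a, 2.03 over Mir301 and 2.43 over Mir301b. The share of the family was 0.222% of the summed TPM of all rows, since rows other than miRNA genes were then counted. At 10 TPM in all libraries 113 miRNA genes were counted, against 213 at 1 TPM, by construction of the stricter limit. The SD of the log2 ratio of Mir130b to Mir301b ranged from 0.52 to 1.01 with each library left out, the lowest without library 3; the cause was not tested. The mean TPM of Mir301b was 4.74 without library 3, against 7.35 with all libraries. Relative to the level, counting error was largest in library 4, where Mir301b and Mir130a had 25 and 26 reads. No pairing of libraries between conditions was possible because the libraries form 1 group. Genes were paired within each library.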
